A study of Mus musculus with 6 samples.

Results

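The DNA replication machinery was followed through 42 genes in RNA-seq of mouse skin. The genes were taken by symbol from the table of 33308 genes and grouped by the complex they belong to, from the origin recognition complex to the enzymes that close the new strand. All 42 were in the table. Skin from 3 osimertinib-treated mouse samples was set against skin from 3 untreated control samples. Osimertinib is a kinase inhibitor of the epidermal growth factor receptor, and treatment had lasted 42 days when the tissue was taken; the controls carried no other agent according to the labels. The labels used here give no dose, strain, age or sex. The series design names skin problems under osimertinib as its subject. Whether each sample is a different animal is not stated, and the p-values therefore describe variation among the libraries, part of which may be technical.

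Before a cell copies its genome, the origin recognition complex marks the start sites, and Cdc6 and Cdt1 load onto them a ring of 6 related proteins, Mcm2 to Mcm7, which is the motor of the replicative helicase. In S phase the ring is switched on by Cdc45 and the GINS complex, polymerase alpha with its primase lays down primers, and polymerases epsilon and delta extend them, held to the template by the sliding clamp Pcna. Many of these genes are transcribed in a wave at the start of S phase under E2F transcription factors, and in skin they are known from the dividing cells of the basal epidermis and of the matrix of growing hair follicles.

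Summed transcripts of this machinery were higher in osimertinib skin, and nearly every gene had a positive fold change. Levels are given as scaled FPKM, the deposited FPKM (fragments relative to transcript length and sequencing depth) divided by the library's TMM scaling factor, so that they can be compared between genes and libraries. The 42 genes summed to 301, 386 and 342 scaled FPKM in osimertinib 1, 2 and 3, against 198, 184 and 250 in control 1, 2 and 3. The groups did not overlap, and the sum was 1.63-fold higher in osimertinib skin (343 ± 42.3 against 211 ± 34.6, SD, n = 3 each). In 29 of the 42 genes (69%) every osimertinib library was above every control library, against a background of 8.02% of all genes with a count; in the other 13 the groups overlapped, and in 0 was every osimertinib library below every control. Among the 40 members past the expression filter, 27 were separated upward, against 12% of the genes tested, and 0 downward, against 8.72%. In an edgeR fit over all genes with a count, 41 of the 42 had a positive log2 fold change, against 47.4% of genes, and their median was 0.71, against −0.04 over all genes. In that fit the highest log2 fold changes were those of Orc1 (1.96 ± 0.69, SE), Dna2 (1.86 ± 0.36), Mcm10 (1.78 ± 0.41) and Mcm5 (1.6 ± 0.37). By role, the medians were highest for the Mcm2 to Mcm7 ring (1.18) and for the processing of lagging-strand fragments (1.15), and lowest for the origin recognition complex (0.27).

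Gene by gene, fewer passed a test. By the quasi-likelihood test of edgeR over the 13498 genes with a mean of at least 1 FPKM, 0 of the 40 members tested passed a Benjamini-Hochberg adjusted p of 0.05, as did 0 genes in all (0%). The lowest adjusted p of a member was 0.152. At an unadjusted p under 0.05, 24 of the 40 (60%) were higher and 0 lower, against backgrounds of 7.22% of genes higher and 6.73% lower. DESeq2 on the same genes called 12 members higher (30%) and 0 lower, against backgrounds of 3.41% and 2.95%. These were Mcm2, Mcm3, Mcm4, Mcm5, Mcm7, Mcm10, Gins1, Pola2, Pcna, Rfc4, Fen1 and Dna2. A positive fold change was seen in 38 of the 40 (95%), against 45.3% of genes tested, with a median of 0.65 and a range from −0.18 for Orc5 to 1.81 for Dna2. Orc1 and Cdc6 stayed under the filter, and 4 tested members (Mcm10, Dna2, Pole and Pola1) had a mean under 1 FPKM in controls and passed through the osimertinib libraries.

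**Figure D1:**
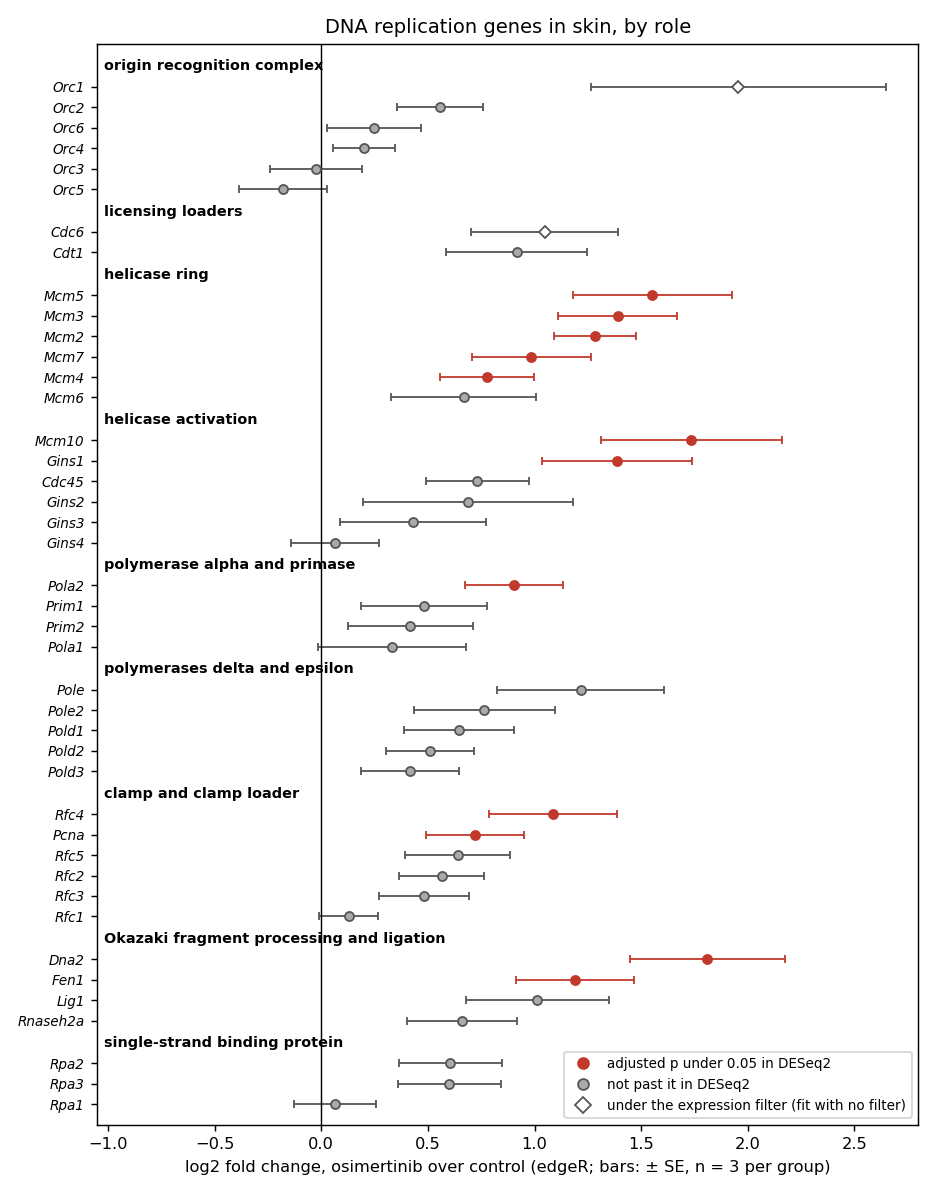
Log2 fold change (osimertinib over control) of the 42 replication genes by role, with bars of 1 SE from edgeR (n = 3 libraries per group). Red points are the 12 genes past an adjusted p of 0.05 in DESeq2, grey points those not past it, and open diamonds Orc1 and Cdc6, from the fit without a filter. Nearly all points lie above 0, with Orc1 at 1.96 the highest and Orc3 and Orc5 at or below 0.

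Library totals ran from 59877553 to 60719064 counts in osimertinib skin and from 54112624 to 57174797 in control skin, and single members held between 14 and 9574 counts in a library. The basal keratinocyte keratins Krt5 and Krt14 were abundant in each of the 6 libraries, with Krt5 at 1837 to 3237 scaled FPKM in osimertinib skin and 1855 to 5567 in control skin. The samples differed in makeup. Skeletal muscle markers (18 genes) took 7.15%, 4.55% and 6.97% of counts in osimertinib 1 to 3 and 4.36%, 13.2% and 0.0370% in control 1 to 3, so that control 3 held almost no muscle RNA. The 6 hair matrix markers took 0.0261%, 0.0819% and 0.0295% in osimertinib skin and 0.00316%, 0.00455% and 0.00488% in control skin, all 6 of them higher by DESeq2. Of these 6, 2 had a mean under 1 FPKM in controls. DESeq2 called 3.41% of all genes tested higher and 2.95% lower. Basal keratinocyte markers (7 genes) took 1.89%, 1.09% and 1.19% in osimertinib skin and 2.17%, 1.01% and 4.39% in control skin; all 7 had a negative fold change (median −0.94), and 1, Krt15, was called lower by DESeq2 (adjusted p = 0.000524). In these bulk samples, fewer cells of a type cannot be told apart from less RNA per cell, and the part of tissue makeup in the replication genes was not tested. Relative to FPKM outside the muscle, hair shaft keratin and adipocyte markers, the 42 genes summed to 8.20, 11.1 and 9.6 per 10000 in osimertinib skin and to 6.05, 4.26 and 8.06 in control skin, with no overlap and a ratio of 1.57. The hair matrix markers were not left out of that reference.

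The origin recognition complex, which binds origins and recruits the loading factors, had the lowest median fold change of the role groups. Its 6 genes summed to 22.2, 25.9 and 24.5 scaled FPKM in osimertinib skin, against 19.9, 17.9 and 21.9 in control skin. Of the 5 subunits tested, 3 had a positive fold change and 1 an unadjusted p under 0.05 by edgeR, and the median log2 fold change was 0.20. Over all genes tested, 45.3% had a positive fold change and 7.22% were higher at that unadjusted p. Within the complex, log2 fold changes ran from −0.14 for Orc5 to 1.96 for Orc1 in the fit over all genes with a count. The difference between subunits was not tested. Orc1, the large ATPase subunit whose protein is known to be degraded and remade with the cell cycle, had 257, 356 and 278 counts in osimertinib skin and 14, 62 and 140 in control skin. All 3 osimertinib libraries were above the controls on the per-length scale as well (1.08, 1.36 and 1.1 scaled FPKM in osimertinib skin, against 0.0612, 0.328 and 0.532 in control skin). Its log2 fold change in the fit over all genes with a count was 1.96 ± 0.69 (SE; unadjusted p = 0.0242, adjusted p = 0.438 by edgeR).

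The core subunits that stay with Orc1 on DNA had smaller fold changes. Orc2 had 3.94, 5.89 and 4.89 scaled FPKM in osimertinib skin and 3.28, 3.12 and 3.49 in control skin, which did not overlap (log2 fold change 0.56 ± 0.20, unadjusted p = 0.0315, adjusted p = 0.322 by edgeR). Orc3 had 2.60, 2.44 and 3.14 in osimertinib skin and 2.59, 3.37 and 2.29 in control skin (−0.02 ± 0.22, adjusted p = 0.983 by edgeR). Orc4 had 3.08, 3.54 and 3.54 in osimertinib skin and 2.75, 2.94 and 3.04 in control skin, close but without overlap (0.20 ± 0.15, adjusted p = 0.591 by edgeR). Orc5 and Orc6 overlapped between groups, with log2 fold changes of −0.18 ± 0.21 and 0.25 ± 0.22. The sign for Orc3 and for Orc5 was not stable across processing choices. Part of Orc2 lies on the strand opposite Nif3l1 over 19046 bases, and the sources used here do not say whether counting used strand.

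The licensing factors that load the helicase ring were both separated upward between groups, against 8.02% of all genes with a count. Cdt1, a loading factor held in check by geminin, had 4.96, 5.77 and 6.14 scaled FPKM in osimertinib skin and 2.59, 1.88 and 4.36 in control skin (log2 fold change 0.92 ± 0.33, unadjusted p = 0.0316, adjusted p = 0.322 by edgeR, 0.0954 by DESeq2). Cdc6, the ATPase that joins the origin complex before loading, was low, with 0.970, 1.73 and 1.1 in osimertinib skin and 0.610, 0.480 and 0.794 in control skin (1.05 ± 0.35 without a filter, adjusted p = 0.400 by edgeR).

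The Mcm2 to Mcm7 ring was the group with the most calls: 5 of its 6 genes rose by DESeq2, and in all 6 every osimertinib library was above every control. Over all genes tested, DESeq2 called 3.41% higher, and every osimertinib library was above every control in 12%. The ring summed to 60.8, 86.5 and 69.9 scaled FPKM in osimertinib skin, against 31.9, 24.9 and 45.7 in control skin, and its median log2 fold change was 1.13. Mcm2 (chr6:88883474-88898780, minus strand, GRCm38) had the smallest p of all members. It had 5.40, 7.75 and 6.76 in osimertinib skin and 2.59, 2.45 and 3.05 in control skin (1.28 ± 0.19, adjusted p = 0.152 by edgeR, 2.76e-06 by DESeq2). Its 3 controls lay close together, and even the lowest osimertinib library was well above them.

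Mcm3 (chr1:20802968-20820312, minus strand) had 12, 14.4 and 13.6 scaled FPKM in osimertinib skin and 4.19, 3.73 and 7.14 in control skin (1.39 ± 0.28, adjusted p = 0.190 by edgeR, 0.000351 by DESeq2). Mcm5 (chr8:75109569-75128439, plus strand), which pairs with Mcm2 at the gate of the ring, had 9.19, 15.7 and 10.0 in osimertinib skin and 2.89, 2.90 and 5.94 in control skin, the highest fold change of the ring (1.55 ± 0.37, adjusted p = 0.231 by edgeR, 0.00445 by DESeq2). In both genes control 3 stood above the other 2 controls and still below every osimertinib library. Mcm4, part of the catalytic core, had 7.71, 8.82 and 9.64 in osimertinib skin and 5.05, 3.83 and 6.20 in control skin (0.78 ± 0.22, adjusted p = 0.260 by edgeR, 0.0221 by DESeq2). Mcm7, also of that core, had 16.1, 26.1 and 18.8 in osimertinib skin and 9.28, 7.87 and 13.3 in control skin (0.98 ± 0.28, adjusted p = 0.260 by edgeR, 0.0295 by DESeq2). Mcm6 was the ring gene that neither tool called. It had 10.5, 13.7 and 11.1 in osimertinib skin and 7.89, 4.06 and 10.0 in control skin, with control 3 just under osimertinib 1 (0.67 ± 0.34, unadjusted p = 0.0944, adjusted p = 0.439 by edgeR, 0.301 by DESeq2).

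Because the ring holds 1 copy of each protein, the order of its transcripts was also compared. Mcm7 was the highest and Mcm2 the lowest of the 6 in every library, with a ratio of 2.98, 3.36 and 2.79 in osimertinib skin and 3.58, 3.21 and 4.37 in control skin. On the other strand Mcm7 shares 421 bases with Ap4m1 and 64 with Cops6. Their mean counts were 3237.5 and 6336.5, against 4754.7 for Mcm7. Below Mcm7, the order differed between groups. Mcm6 came second in all 3 controls, whereas Mcm3 came second in osimertinib 1 and 3 and Mcm5 in osimertinib 2. Among the 42 genes, Mcm3 ranked 4 by mean level in osimertinib skin and 16 in control skin, and Mcm5 ranked 11 and 22. These ranks are descriptions, since neighbouring genes often differed by less than their SD.

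**Figure D2:**
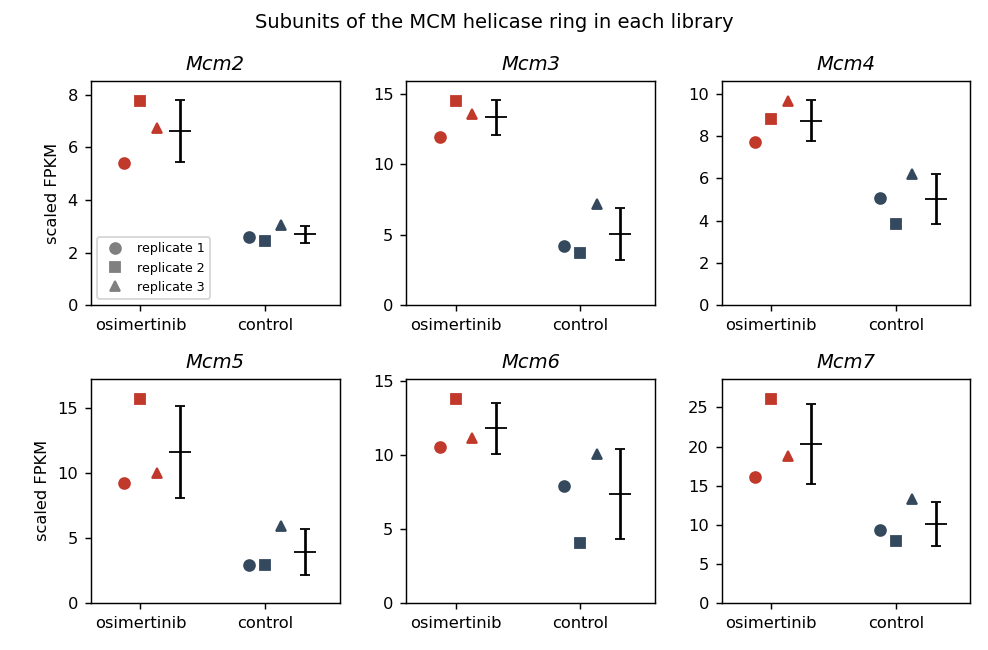
Scaled FPKM of the 6 genes of the helicase ring in each library, osimertinib at the left and control at the right of each panel, with the mean and SD over 3 libraries. In each panel the osimertinib libraries lie above the controls, by a wide margin for Mcm2 and Mcm3 and by a narrow one for Mcm6, where control 3 reaches 10.0 and osimertinib 1 stands at 10.5.

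The start regions of these genes were searched for E2F words, since E2F factors are known regulators of this gene class and nearly all members had positive fold changes. Promoter windows of 300 bases (250 before to 50 after the start, RefSeq, GRCm38.p6) were found for 35 of the 42 genes. The words searched on both strands were TTTCCCGC, TTTGGCGC, TTTCGCGC and TTTGCCGC, and words that overlap one another were counted apart. At least 1 word was present in 15 of 43 windows of members (34.9%), against 455 of 12247 windows of all genes tested (3.72%) and 744 of 32851 windows in all (2.26%). Windows of members and of tested genes had a similar median GC content (61.3% and 60.7%). A match is only a match of letters. The windows of Mcm3, Mcm5 and Mcm6 are shown as examples of ring genes with more than 1 word (Mcm7 also holds 2, starting at −165 and 17, and is not shown), that of Dna2 because it holds none and had one of the highest fold changes, and that of Orc3 because it holds a word and did not differ. They lie at chr1:20820263-20820562 (minus strand), chr8:75109259-75109558 (plus strand), chr1:128359656-128359955 (minus strand), chr10:62946779-62947078 (plus strand) and chr4:34614893-34615192 (minus strand), and are written 5′ to 3′ in the direction of the gene, with E2F words of either strand in capitals.
Mcm3: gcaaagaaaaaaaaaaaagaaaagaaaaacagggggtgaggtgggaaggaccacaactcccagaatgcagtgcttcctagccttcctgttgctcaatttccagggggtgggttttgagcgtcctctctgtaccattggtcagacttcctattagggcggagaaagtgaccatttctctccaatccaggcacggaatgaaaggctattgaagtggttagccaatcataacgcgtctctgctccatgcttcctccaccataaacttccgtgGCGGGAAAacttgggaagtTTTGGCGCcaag
Mcm5: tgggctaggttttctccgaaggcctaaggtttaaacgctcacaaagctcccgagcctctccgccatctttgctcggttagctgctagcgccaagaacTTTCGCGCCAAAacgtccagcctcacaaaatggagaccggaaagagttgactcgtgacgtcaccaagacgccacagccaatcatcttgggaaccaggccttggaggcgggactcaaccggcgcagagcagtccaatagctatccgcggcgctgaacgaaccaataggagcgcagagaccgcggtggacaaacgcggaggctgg
Mcm6: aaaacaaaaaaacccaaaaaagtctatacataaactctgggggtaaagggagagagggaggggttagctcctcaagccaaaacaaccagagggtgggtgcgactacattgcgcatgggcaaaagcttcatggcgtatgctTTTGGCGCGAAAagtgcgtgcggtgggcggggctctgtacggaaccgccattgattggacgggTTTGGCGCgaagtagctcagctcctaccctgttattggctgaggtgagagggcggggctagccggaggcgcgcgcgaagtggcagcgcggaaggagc
Dna2: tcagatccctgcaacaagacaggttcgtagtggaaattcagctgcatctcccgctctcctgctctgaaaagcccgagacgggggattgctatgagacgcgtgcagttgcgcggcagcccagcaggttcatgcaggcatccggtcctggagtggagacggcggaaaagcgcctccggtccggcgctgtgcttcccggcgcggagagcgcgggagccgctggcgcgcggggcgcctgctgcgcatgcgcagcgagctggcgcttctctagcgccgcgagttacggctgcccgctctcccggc
Orc3: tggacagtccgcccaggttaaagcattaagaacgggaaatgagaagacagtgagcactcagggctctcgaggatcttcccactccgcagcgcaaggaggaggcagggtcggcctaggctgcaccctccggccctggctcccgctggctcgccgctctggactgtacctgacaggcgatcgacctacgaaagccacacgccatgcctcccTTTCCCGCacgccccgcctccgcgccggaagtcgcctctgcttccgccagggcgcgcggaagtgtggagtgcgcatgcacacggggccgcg

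In Mcm3 the words start at positions 20 and 39 after the start, in Mcm5 at −153 and −149, where they overlap, and in Mcm6 at −110, −106 and −47, the first 2 of which overlap. Orc3 holds its word at −41. The fold changes of genes with and without a word overlapped widely. The 15 genes with a word had a median log2 fold change of 0.82, from 0.01 for Orc3 to 1.96 for Orc1, and the 20 without one had 0.67, from −0.14 to 1.86, all from the fit without a filter.

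**Figure D3:**
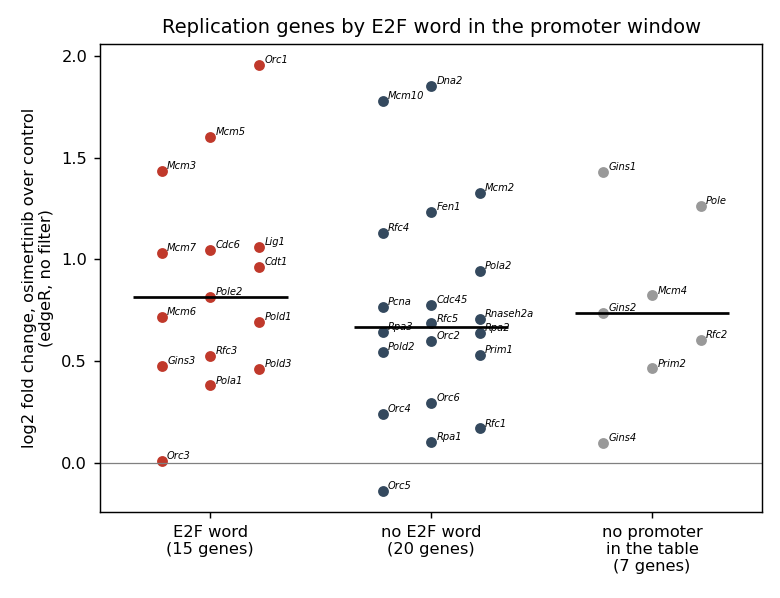
Log2 fold change (osimertinib over control, edgeR without a filter) of replication genes by whether their 300-base promoter window holds an E2F word; bars are medians, and the 7 genes at the right have no window in the table. The 15 genes with a word (median 0.82) and the 20 without (median 0.67) span much the same range.

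The factors that turn the loaded ring into an active helicase had graded fold changes, from Gins4 near 0 to Mcm10. Mcm10, which helps to open the ring at firing, was low in controls, with 1.14, 1.86 and 1.59 scaled FPKM in osimertinib skin and 0.292, 0.335 and 0.728 in control skin, and rose by DESeq2 (1.74 ± 0.43, adjusted p = 0.233 by edgeR, 0.00394 by DESeq2; 1.78 ± 0.41 and adjusted p = 0.269 by edgeR without a filter). Gins1, a subunit of the GINS tetramer, had 5.91, 8.98 and 7.31 in osimertinib skin and 1.78, 2.69 and 3.91 in control skin (1.39 ± 0.35, adjusted p = 0.239 by edgeR, 0.0102 by DESeq2). Both were separated between groups, with control 3 the highest control. Gins4, from the same tetramer, had 11.5, 12.1 and 12 in osimertinib skin and 9.33, 14.1 and 10.4 in control skin (0.06 ± 0.21, adjusted p = 0.952 by edgeR), and its groups overlapped. Cdc45, the third partner of the active helicase, was separated with a log2 fold change of 0.73 ± 0.24 (adjusted p = 0.0863 by DESeq2). Gins2 and Gins3 overlapped between groups, with 0.69 ± 0.49 and 0.43 ± 0.34. In Gins2 a single library made the overlap: control 3 stood at 13.5, against 5.11 and 3.86 in control 1 and control 2 and 15.2, 11.7 and 9.68 in osimertinib skin. The Gins2 gene also shares 2758 bases with Gse1 on the other strand, a gene with a mean count of 1794.5. Without control 3 the median log2 fold change of the 6 activation factors was 1.1, against 0.71 with all libraries.

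Polymerase alpha and primase begin each new strand with a short RNA and DNA primer. The groups overlapped in 3 of their 4 genes, and over all genes tested 12% were separated upward. Pola2, the accessory subunit, was the exception. It had 2.14, 3.48 and 2.95 scaled FPKM in osimertinib skin and 1.32, 1.67 and 1.53 in control skin and rose by DESeq2 (0.90 ± 0.23, adjusted p = 0.242 by edgeR, 0.0341 by DESeq2). Prim1, the catalytic primase subunit, had 4.10, 6.85 and 5.36 in osimertinib skin and 3.79, 2.77 and 4.98 in control skin (0.48 ± 0.29, adjusted p = 0.520 by edgeR). Pola1, the polymerase itself, had 0.946, 1.20 and 1.16 in osimertinib skin and 0.768, 0.546 and 1.28 in control skin (0.33 ± 0.35, adjusted p = 0.744 by edgeR), and Prim2 differed by 0.42 ± 0.29. Control 3 was above osimertinib 1 in Prim1, above osimertinib 1 and 3 in Prim2 and above every osimertinib library in Pola1. The median of the 4 genes was 0.45 with all libraries, 0.73 without control 3 and 0.28 without control 2.

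The polymerases that copy the bulk of the genome are delta on the lagging and epsilon on the leading strand. They had 5 of 5 positive fold changes, 3 of them with an unadjusted p under 0.05 by edgeR and 0 called by DESeq2. Over all genes tested, 45.3% were positive, 7.22% were higher at that unadjusted p and 3.41% were called higher by DESeq2. Pole, the catalytic subunit of epsilon, had 0.939, 1.87 and 1.37 scaled FPKM in osimertinib skin and 0.417, 0.477 and 0.875 in control skin (1.22 ± 0.39, unadjusted p = 0.0198, adjusted p = 0.290 by edgeR, 0.0588 by DESeq2). Its mean in controls was under 1 FPKM, and it passed the filter through the osimertinib libraries (1.26 ± 0.38, adjusted p = 0.375 by edgeR without a filter). Pold1, the catalytic subunit of delta, had 5.5, 7.75 and 6.50 in osimertinib skin and 3.73, 3.19 and 5.56 in control skin (0.64 ± 0.26, adjusted p = 0.346 by edgeR). Pole was separated between groups and Pold1 was not, by a margin of control 3 over osimertinib 1. Pold3, an accessory subunit of delta, had 5.29, 6.70 and 7.13 in osimertinib skin and 4.43, 3.74 and 6.0 in control skin (0.42 ± 0.23, adjusted p = 0.474 by edgeR). Pold2 and Pole2 were separated, with 0.51 ± 0.21 and 0.77 ± 0.33.

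Pcna, the sliding clamp, had the highest level of the 42 genes in both groups. It had 43.7, 53.1 and 49.8 scaled FPKM in osimertinib skin and 32.8, 21.2 and 34.0 in control skin, without overlap, and rose by DESeq2 (0.72 ± 0.23, adjusted p = 0.287 by edgeR, 0.0378 by DESeq2). The loader that opens the clamp has 1 large and 4 small subunits, which were not alike. Rfc1, the large subunit, had 5.59, 6.21 and 6.62 in osimertinib skin and 5.52, 5.47 and 5.67 in control skin (0.13 ± 0.14, adjusted p = 0.751 by edgeR). Rfc4 had 7.49, 14 and 8.43 in osimertinib skin and 4.05, 5.45 and 4.40 in control skin and rose by DESeq2 (1.09 ± 0.30, adjusted p = 0.260 by edgeR, 0.0449 by DESeq2). Rfc4 was led by osimertinib 2, and its end overlaps Eif4a2 on the other strand over 175 bases, a gene with a mean count of 26029 against 783 for Rfc4. Rfc2, Rfc3 and Rfc5 were each separated, with log2 fold changes of 0.56 ± 0.20, 0.48 ± 0.21 and 0.64 ± 0.25. The difference between the large and the small subunits was not tested.

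All 4 genes that process and join the fragments of the lagging strand were separated upward between groups, against 12% of genes tested. Each had an unadjusted p under 0.05 by edgeR, and 7.22% of genes tested were higher at that level. By adjusted p, edgeR called 0 of the 4. Their median log2 fold change was 1.1. Dna2, a nuclease and helicase that trims long flaps, had 1.28, 2.24 and 1.86 scaled FPKM in osimertinib skin and 0.361, 0.443 and 0.708 in control skin, with a mean under 1 FPKM in controls (1.81 ± 0.36, adjusted p = 0.190 by edgeR, 0.000267 by DESeq2; 1.86 ± 0.36 and adjusted p = 0.206 by edgeR without a filter). Fen1, the flap endonuclease, had 9.74, 13.7 and 10.6 in osimertinib skin and 4.09, 3.91 and 6.71 in control skin (1.19 ± 0.28, adjusted p = 0.216 by edgeR, 0.00431 by DESeq2). Both rose by DESeq2. Lig1, the ligase that seals the nicks, had 8.77, 12.1 and 12 in osimertinib skin and 4.70, 3.42 and 7.93 in control skin (1.01 ± 0.34, adjusted p = 0.0637 by DESeq2). Rnaseh2a, the catalytic subunit of the enzyme that removes ribonucleotides, had 11.0, 15.3 and 12.2 in osimertinib skin and 7.07, 6.21 and 10.8 in control skin (0.66 ± 0.26, adjusted p = 0.340 by edgeR, 0.166 by DESeq2). Its end overlaps Prdx2 on the other strand over 181 bases, a gene with a mean count of 14232. Of the 42 members, 20 have a span that overlaps another gene, and only some of these overlaps are given here.

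Replication protein A, which coats single-stranded DNA in replication and repair, was uneven. Rpa1, its large subunit, had 9.56, 11.9 and 12.7 scaled FPKM in osimertinib skin and 10.3, 12.7 and 9.32 in control skin (0.07 ± 0.19, adjusted p = 0.944 by edgeR). Rpa2 had 11.4, 12.9 and 12.9 in osimertinib skin and 6.22, 11.0 and 7.09 in control skin (0.60 ± 0.24, adjusted p = 0.346 by edgeR, 0.320 by DESeq2). Rpa3 had 10.1, 13.9 and 13.8 in osimertinib skin and 9.50, 6.46 and 8.65 in control skin (0.60 ± 0.24, adjusted p = 0.346 by edgeR, 0.152 by DESeq2). The 2 smaller subunits were separated between groups and the large one was not, and the difference between them was not tested.

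Libraries of the same group were not alike. Osimertinib 2 was the highest osimertinib library in 31 of the 42 genes, and control 3 was the highest control in 34. Control 3 was above the lowest osimertinib library in 10 genes. Averaged over the 42 genes as log2 CPM relative to each gene's mean, osimertinib 1 to 3 scored 0.18, 0.59 and 0.41, against −0.55, −0.58 and −0.05 for control 1 to 3. The number of the 42 genes with separated groups was 37 without control 3, against 13% of all genes with a count in the same libraries, and 35 without osimertinib 1, against 11.7%. It was 30 without control 2, against 14.7%. It was 29 without control 1, without osimertinib 2 and without osimertinib 3, against 9.9%, 11.1% and 11.5% of all genes. With only 5 libraries separation is easier for any gene, so these counts are not comparable with the 29 of all 6 libraries. The shares here are over all genes with a count, including those under the filter. With all 6 libraries that share was 8.02%, against 12% of the genes tested. Osimertinib 2 also had the highest hair matrix share and control 3 the lowest muscle share of the 6 libraries; their part in these values was not tested.

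**Figure D4:**
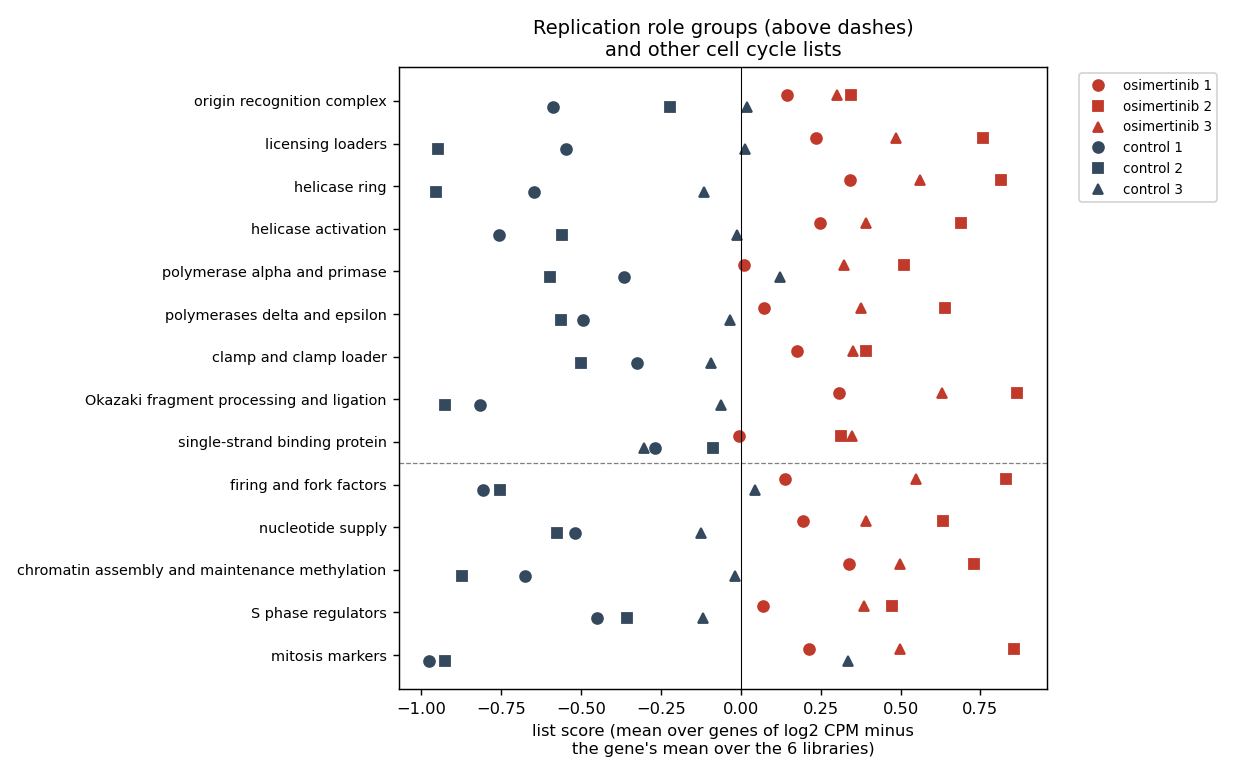
List score of each library for the 9 role groups of the replication machinery (above the dashes) and 5 other cell cycle lists. Osimertinib libraries lie to the right of the controls in most lists, while control 3 passes osimertinib 1 in polymerase alpha and primase (0.12 against 0.01 for osimertinib 1, on the log2 scale) and in the mitosis markers.

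Genes that work beside the replication machinery were described by the same counts. Over all genes tested, 45.3% had a positive fold change, and DESeq2 called 3.41% higher and 2.95% lower. Every osimertinib library was above every control in 12%. These shares are the backgrounds for each list below. Firing and fork factors had 11 of 11 tested genes with a positive fold change and a median of 1.0, and 5 rose by DESeq2. Of the 12 listed, 6 had a mean under 1 FPKM in controls, and those tested passed the filter through the osimertinib libraries. In the fit over all genes with a count, 12 of 12 were positive, against 47.4% of genes, with a median of 1.05. Of the firing and fork factors, Timeless, a fork protection factor, had 2.30, 4.10 and 3.58 scaled FPKM in osimertinib skin and 1.16, 1.31 and 1.80 in control skin (1.20 ± 0.29, adjusted p = 0.232 by edgeR, 0.00998 by DESeq2). Its partner Tipin (0.82 ± 0.17) and Gmnn, the geminin that inhibits Cdt1 (1.0 ± 0.28), also rose by DESeq2. Among 10 tested further subunits of the same machines, 8 had a positive fold change with a median of 0.26, and 3 rose by DESeq2: Rnaseh2b (0.82 ± 0.19), Rnaseh2c (0.61 ± 0.17) and Chtf18 of an alternative clamp loader (1.57 ± 0.41). Chtf18 had a mean under 1 FPKM in controls (1.62 ± 0.40, adjusted p = 0.298 by edgeR without a filter).

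Nucleotide supply had 10 of 11 positive values, against 45.3% of genes tested, and a median of 0.89. DESeq2 called 6 of its genes higher, against a background of 3.41%. Dtymk, the thymidylate kinase, had 13.4, 15.3 and 15.2 scaled FPKM in osimertinib skin and 8.13, 8.45 and 9.09 in control skin, with little spread in either group (0.76 ± 0.14, adjusted p = 0.180 by edgeR, 0.000164 by DESeq2). Dut, which keeps uracil out of DNA (1.02 ± 0.22), rose by DESeq2 as well. Rrm2b, the p53-inducible small subunit of ribonucleotide reductase, was the gene of this list with a negative value (−0.66 ± 0.36, adjusted p = 0.470 by edgeR).

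Chromatin assembly and maintenance methylation had 9 of 9 positive values, a median of 0.85 and 3 genes called by DESeq2. Uhrf1, which brings the maintenance methyltransferase to new DNA, had 11.8, 16.2 and 14 scaled FPKM in osimertinib skin and 2.72, 2.45 and 6.37 in control skin (1.84 ± 0.41, adjusted p = 0.208 by edgeR, 0.000733 by DESeq2). The remodeller Hells (1.72 ± 0.32) and Chaf1b of the chromatin assembly factor (1.64 ± 0.37) rose by DESeq2 too. Hells had a mean under 1 FPKM in controls (1.77 ± 0.31, adjusted p = 0.193 by edgeR without a filter). Of 15 tested S phase regulators, 12 had a positive and 3 a negative value, and 4 rose by DESeq2. Ccne1, the cyclin E that drives entry into S phase, had 2.51, 4.02 and 3.69 in osimertinib skin and 0.623, 0.732 and 1.23 in control skin (1.95 ± 0.36, adjusted p = 0.180 by edgeR, 3.86e-05 by DESeq2). Its mean in controls was under 1 FPKM, and it passed the filter through the osimertinib libraries. Without a filter it had 1.999 ± 0.36 (adjusted p = 0.194 by edgeR). E2f1 (1.14 ± 0.24) and E2f8 (0.80 ± 0.20) also rose by DESeq2. Rbl2, the pocket protein p130 known from resting cells, had 3.76, 4.13 and 5.08 in osimertinib skin and 5.86, 6.34 and 5.22 in control skin, every osimertinib library below every control (−0.44 ± 0.18, unadjusted p = 0.0442, adjusted p = 0.345 by edgeR). It was the 1 gene of the 16 listed so separated, and 8.72% of all genes tested were. At an unadjusted p under 0.05 by edgeR, 6.73% of genes tested were lower.

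Mitosis markers had 13 of 13 positive values and a median of 0.89. DESeq2 called 0 of the 13, against a background of 3.41% of genes tested called higher, so that the count was near that share. The groups were separated upward in 4 of 13, against 12% of genes tested. Mki67 had 12.2, 19.6 and 14.4 scaled FPKM in osimertinib skin and 3.81, 4.56 and 10.3 in control skin (1.29 ± 0.43, unadjusted p = 0.0223, adjusted p = 0.299 by edgeR). Cdk1 had 6.85, 9.93 and 8.92 in osimertinib skin and 2.81, 2.72 and 6.91 in control skin, with control 3 above osimertinib 1 (1.03 ± 0.41, adjusted p = 0.344 by edgeR). Bub1 differed by 1.19 ± 0.46. The list scored 0.22, 0.85 and 0.50 in osimertinib 1 to 3 and −0.98, −0.92 and 0.33 in control 1 to 3, so that control 3 lay between osimertinib 1 and osimertinib 3. The difference between the mitosis and the replication lists was not tested.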

How the data were processed

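RNA-seq was done on 6 mouse skin samples, 3 per group, grouped by their titles and treatment labels. Per the labels' protocols, polyadenylated RNA was made into dUTP-stranded paired-end libraries with molecular identifiers. Per the submitters' processing notes, cutadapt 1.9 and build GRCm38 were used; which aligner, counter and annotation were used, and whether strand or identifiers were, is not given in the sources used here. The authors deposited raw counts (whole numbers) and FPKM values for each gene. A further 6 value columns match no sample and were not used. Of the 42 member identifiers, all are in GENCODE mouse release 21, 34 of them with the same start and end; coordinates are those of the deposited table.

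Genes with a mean deposited FPKM of at least 1 (13498) were tested on the counts by the quasi-likelihood test of edgeR 4.0.16 (R 4.3.3, TMM, two-sided, Benjamini-Hochberg threshold 0.05); SE is the log2 fold change over the square root of F. DESeq2 1.42.0, limma 3.58.1 on log2 FPKM, other filters, other scalings, a muscle covariate, a replicate block and leaving out each library were alternatives. List scores use log2 CPM with a prior count of 2. The scripts were tested on simulated data. All 42 members are named; those given in full are, per role, the 2 with the smallest and the 1 with the largest p and any past a threshold, and of each other list up to 3 with the smallest p. 1 gene that this rule takes is not reported here. Orc1, Orc5, Orc6, Cdc6, Lig1, Gins2, Cdc45, Rbl2 and Rrm2b were singled out after their values were seen. The members and lists were chosen with earlier results of these data known. In 3 against 3 libraries the smallest exact p is 0.1.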

Additional observations from a re-analysis of the deposited data

How the results depend on the processing

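The median log2 fold change of the tested members (0.65) stayed positive under every alternative run, between 0.53 and 0.86 when single libraries were left out and between 0.62 and 0.87 otherwise. The count of members with a positive fold change ran from 37 to 39 when single libraries were left out; with a filter of at least 5 FPKM it was 23, of the 23 members then tested. The count of members called was 12 with DESeq2 and 0 in each fit without one library. Over all genes, DESeq2 called 858, limma 17 on log2(FPKM + 1) and 2 on log2(FPKM + 0.1), limma 3 after quantile normalization, edgeR 2 with the filter of 5 FPKM and 1 with the muscle covariate, and edgeR 0 without any one library. The labels used here do not say that replicate numbers pair the samples. Same-numbered samples correlated at 0.222, 0.0294 and −0.115 in their deviations, and different-numbered ones from −0.284 to 0.111. With so few pairs these values cannot settle pairing. A fit with the replicate block called 0 members, with a median of 0.69 and 38 positive.

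The sign was not stable for genes near 0. Orc3 was 0.055 and 0.071 with limma, 0.0056 with upper-quartile scaling, 0.0083 without a filter, and 0.0097, 0.0504 and 0.1711 without osimertinib 1, osimertinib 2 or control 2 (from −0.1459 to 0.1711 over the libraries left out). Orc5 was 0.0111 without control 3 (lowest −0.2961, without control 1) and 0.0518 with the muscle covariate and without control 3. Gins4 was −0.002 with the muscle covariate and −0.0555 without control 1 (highest 0.273, without control 2). Rpa1 was −0.0121 with the muscle covariate, and −0.0041 and −0.031 without osimertinib 3 or control 3. The median over all genes moved from −0.05 to as much as 0.0952, with limma on log2(FPKM + 0.1). The causes were not tested.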

Other observations

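Other promoter words and marker lists gave further values. The CCAAT word was present in 24 of 43 member windows (55.8%), against 37% of windows of all genes tested, and TTTGAA, the cell cycle homology word of mitotic genes, in 5 of 43 (11.6%) against 12.1%, both strands searched. The 3 tested melanocyte markers were called higher by DESeq2, against 3.41% of all genes tested. Of the 4 listed, 2 had a mean under 1 FPKM in controls, and any of these that were tested passed the filter through the osimertinib libraries. In the fit over all genes with a count, 4 of 4 were positive, against 47.4% of genes. The summed level of the list was 44.3, 90.7 and 31.2 scaled FPKM in osimertinib skin and 3.28, 7.77 and 3.85 in control skin. The neutrophil list summed to 292, 93.6 and 799 scaled FPKM in osimertinib skin and 0.363, 25.8 and 27.8 in control skin, and nearly all of it came from S100a8 and S100a9, the 2 genes of the list that were tested, both called higher by DESeq2. The other 2, Csf3r and Cxcr2, overlapped between groups; Cxcr2 had 0.337, 0.306 and 0.189 scaled FPKM in osimertinib skin and 0, 0.0963 and 0.467 in control skin. B cell markers were at 0.199 scaled FPKM or less in every library.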
